A study of Mus musculus with 2 samples.

Results

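Intestinal fat absorption was followed through 10 genes of the mouse ileal epithelium: the apolipoproteins *Apoa1*, *Apoa4*, *Apob* and *Apoc3*, the lipid transfer protein gene *Mttp*, the fatty acid binding protein genes *Fabp1* and *Fabp2*, the triglyceride synthesis genes *Dgat1* and *Dgat2*, and the fatty acid receptor gene *Cd36*. They were taken by gene symbol, and all 10 were found among the 27998 genes of the count tables. The data are 2 droplet-based sc-RNASeq libraries, in which each captured mRNA molecule carries a unique molecular identifier (UMI) and is counted once from its 3′ end. WT and *Tipe0*-/- mice (lacking *Tnfaip8*, the gene of TIPE0) were 8 weeks old and of the C57BL/6 background. Cells of 3 mice per genotype were pooled into 1 library, so a difference of genotype and a difference between the pools cannot be told apart. No test between genotypes was possible, cells were not treated as replicates, and the intervals given are 95% intervals for counting error only.

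Enterocytes of the villus take up fatty acids and monoglycerides from the lumen, rebuild triglyceride at the endoplasmic reticulum and load it onto apolipoprotein B with the help of the microsomal triglyceride transfer protein. The particle gains further apolipoproteins, passes through the Golgi and leaves the cell as a chylomicron. Most dietary fat is absorbed in the proximal small intestine, and the ileum is better known for the recovery of bile acids. Enterocytes mature as they climb the villus, so that lipid genes differ between its bottom and its tip.

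The WT library held 3402 cells and 38127808 UMIs, and the *Tipe0*-/- library 2006 cells and 23897126 UMIs, with medians of 7760 and 7308 UMIs per cell. *Tnfaip8*, the targeted gene, had a level of 9.76 (8.79 to 10.8) in WT, from 372 UMIs, and of 2.39 (1.81 to 3.09) in *Tipe0*-/-, from 57 UMIs, in counts per 1000000 UMIs of the cells concerned (CPM). UMIs from 3′ ends outside a deleted part would still be counted, so this is a weak check of the label. Mitochondrial genes took 6.59% of the WT and 8.56% of the *Tipe0*-/- UMIs, and 9 cell barcodes were shared by the 2 libraries. The part of these differences in the results was not tested. Cells were clustered without the 10 genes and without the other fat absorption genes. Of 14 clusters, 12 were named from marker genes. The tissue label says enterocyte, but the enterocyte-like clusters held 601 of the WT cells (17.7%) and 296 of the *Tipe0*-/- cells (14.8%), and goblet-, Paneth-, tuft-, enteroendocrine-, stem-, cycling- and lymphocyte-like cells were also present.

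Of the 10 genes, 3 lie side by side on chromosome 9. *Apoa1* (chr9:46228580-46230466, plus strand), *Apoc3* (chr9:46232933-46235636, minus strand) and *Apoa4* (chr9:46240696-46243459, plus strand) fall within 14880 bases of the GRCm38 build. The others are scattered over chromosomes 3 (*Fabp2* and *Mttp*), 5 (*Cd36*), 6 (*Fabp1*), 7 (*Dgat2*), 12 (*Apob*) and 15 (*Dgat1*). RefSeq promoters of GRCm38.p6, covering 250 bases before to 50 bases after the start that RefSeq gives, were found for 7 of the 10 genes. None was found for *Apoc3*, *Dgat1* and *Dgat2*. The RefSeq start is not always the first base of the gene's coordinates. It is that base for *Fabp2*, but differs from it for *Apoa1*, *Apoa4*, *Apob* and *Fabp1*. Promoters of 5 of these 7 genes are shown in the direction of transcription. Capitals mark matches, on either strand, to CAAAGT (the core of a site for the enterocyte factor HNF4), AGATAA (a site of GATA factors), TGATAA (another form of that site), TTTATG (the intestinal factor CDX2) and TATAAA (the TATA box).

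*Apoa1* (chr9:46228380-46228679, plus strand): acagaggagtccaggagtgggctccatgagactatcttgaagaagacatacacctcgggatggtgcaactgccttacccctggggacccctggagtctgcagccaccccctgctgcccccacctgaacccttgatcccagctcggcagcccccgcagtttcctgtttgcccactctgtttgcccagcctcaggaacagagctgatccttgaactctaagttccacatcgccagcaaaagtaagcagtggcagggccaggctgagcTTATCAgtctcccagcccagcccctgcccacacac

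*Apoa4* (chr9:46240594-46240893, plus strand): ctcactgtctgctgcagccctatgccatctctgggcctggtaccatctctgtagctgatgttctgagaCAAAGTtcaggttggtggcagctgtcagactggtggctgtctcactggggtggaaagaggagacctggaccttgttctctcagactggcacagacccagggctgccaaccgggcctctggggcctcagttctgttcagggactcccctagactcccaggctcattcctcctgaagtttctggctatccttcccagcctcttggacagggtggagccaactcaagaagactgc

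*Apob* (chr12:7977427-7977726, plus strand): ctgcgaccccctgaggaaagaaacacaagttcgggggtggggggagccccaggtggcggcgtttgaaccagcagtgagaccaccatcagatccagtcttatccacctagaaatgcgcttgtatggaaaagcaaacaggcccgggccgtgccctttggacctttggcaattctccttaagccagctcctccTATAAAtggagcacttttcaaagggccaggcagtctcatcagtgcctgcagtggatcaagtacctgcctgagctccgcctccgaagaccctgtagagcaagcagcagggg

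*Fabp1* (chr6:71199629-71199928, plus strand): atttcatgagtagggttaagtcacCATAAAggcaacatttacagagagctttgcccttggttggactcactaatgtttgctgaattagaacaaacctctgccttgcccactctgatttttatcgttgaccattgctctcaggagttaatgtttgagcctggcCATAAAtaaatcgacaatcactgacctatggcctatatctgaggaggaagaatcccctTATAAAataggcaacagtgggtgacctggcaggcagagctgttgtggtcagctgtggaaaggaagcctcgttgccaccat

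*Fabp2* (chr3:122894822-122895121, plus strand): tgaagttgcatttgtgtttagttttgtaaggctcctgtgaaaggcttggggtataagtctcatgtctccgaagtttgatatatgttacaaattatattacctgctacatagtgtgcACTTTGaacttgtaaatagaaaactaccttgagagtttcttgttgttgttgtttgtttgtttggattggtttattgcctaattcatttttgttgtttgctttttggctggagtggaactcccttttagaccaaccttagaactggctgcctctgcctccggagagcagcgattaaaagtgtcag

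CAAAGT was found in 3 of the 7 promoters (*Apoa4*, *Fabp2* and *Cd36*) and in 14.4% of all 32851 promoters of the same length. TTTATG was found in *Fabp1* and *Cd36* (11.9% of all promoters) and TATAAA in *Fabp1* and *Apob* (13.6% of all promoters). The *Fabp1* TATAAA begins 30 bases before the RefSeq start, and *Fabp1* holds TTTATG at 2 places. TGATAA was matched in *Apoa1* (9.05% of all promoters), and AGATAA in none of the 7 (11.2% of all promoters). TTTATG and TATAAA share most of their letters when 1 of them is read on the other strand, though no match here overlapped another. A match is a description of the letters and not a bound site.

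Before the libraries were compared, each gene was placed among the cell classes. Within each library, 8 of 9 genes with enough UMIs were at least 4-fold higher in enterocyte-like cells than in all other cells together, and the exception was *Fabp1*. Of all genes tested, 5.14% (WT) and 5.73% (*Tipe0*-/-) passed this fold. The median log2 ratio of enterocyte-like over other cells for the 9 genes was 4.10 in WT and 4.33 in *Tipe0*-/-, against -0.49 and -0.44 over all genes. *Apoa4* was the most concentrated, with 846 of its 906 WT UMIs (93.4%) and 336 of its 354 *Tipe0*-/- UMIs (94.9%) in enterocyte-like cells. *Apoa1* had 90.4% and 90.6% of its UMIs there, and *Apoc3* 88.1% and 87.7%. *Dgat1* and *Dgat2* were spread most widely among the 8 genes, with 43.6% and 41.9% for *Dgat1* and 51.5% and 39.7% for *Dgat2*.

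**Figure D1:**
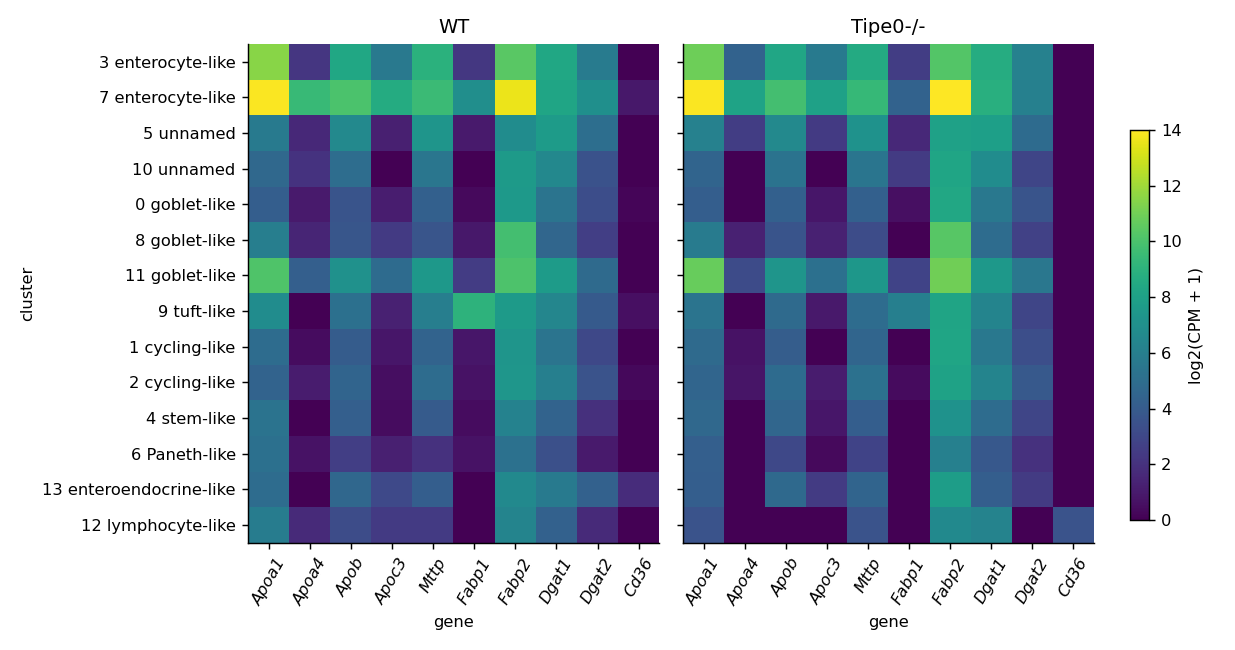
Level of each gene in each cluster and library as log2(CPM + 1), where CPM refers to the UMIs of that cluster, with clusters in rows, genes in columns and the WT and *Tipe0*-/- libraries in the left and right panels. Cluster 7 holds the highest level of *Apoa1*, *Apob*, *Apoc3*, *Mttp* and *Fabp2* in both libraries, and *Fabp1* is highest in tuft-like cluster 9.

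Low counts outside the enterocyte-like cells were read against lymphocyte-like cells, which should lack these transcripts. When every cell was thinned to 3000 UMIs, *Apoa1* was seen in 85.5% of WT and 88.5% of *Tipe0*-/- enterocyte-like cells. It was also seen in 11.1% (5.46 to 19.5%) of the 90 WT lymphocyte-like cells and in 5.88% (0.15 to 28.7%) of the 17 *Tipe0*-/- lymphocyte-like cells, whose median depths before thinning were 4422 and 4315 UMIs, against 6574 and 5777 UMIs for the enterocyte-like cells. Before thinning the enterocyte-like shares were 91.0% and 93.2%. *Apoa1* shares of 5.88 to 13.9% in tuft-, Paneth-, stem-, cycling-, goblet- and enteroendocrine-like cells, after thinning, lay inside the lymphocyte-like intervals. The *Tipe0*-/- interval is wide, since it rests on 17 cells, and thinning keeps a smaller part of the UMIs of deeper cells. Before thinning, the *Apoa1* share was higher in Paneth-like than in lymphocyte-like cells of both libraries, although its CPM was lower in WT. Whether these classes held *Apoa1* of their own is therefore not decided. Cluster 11 had the highest *Apoa1* level of the goblet-like clusters. Its 129 WT and 59 *Tipe0*-/- cells held *Apoa1* at 1138 and 1709 CPM, 15 of the 20 enterocyte markers were raised in it, and 28.2% of its cells were among the 5% with the highest doublet scores.

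Enterocyte-like cells fell into a pair of clusters that took different shares of the 2 libraries. Cluster 3, with 428 WT and 128 *Tipe0*-/- cells, was led by *Upp1*, *U90926* and *Arg2*, and 14 of 20 enterocyte markers were raised in it. Cluster 7, with 173 WT and 168 *Tipe0*-/- cells, was led by *Apoa4*, *Clca4a* and *Mme*, and 17 of 20 markers were raised in it. *Apoa1* was at 2913 CPM in the WT cells of cluster 3 and at 15590 CPM in those of cluster 7. *Apoa4* was at 3.58 and 700 CPM, *Apob* at 324 and 1041 CPM, *Apoc3* at 49.8 and 393 CPM, and *Fabp2* at 1392 and 12351 CPM in the same pair of clusters. *Dgat1* differed less, with 322 CPM (305 to 341) in cluster 3 and 304 CPM (274 to 337) in cluster 7 of WT and 401 CPM (367 to 439) and 455 CPM (416 to 497) in those of *Tipe0*-/-, and the intervals overlapped in both libraries. Genes that are known to mark the upper villus separated the clusters as well: in WT cells *Ada* was at 3.07 CPM in cluster 3 and 403 CPM in cluster 7, *Slc28a2* at 1.53 and 124 CPM, *Klf4* at 206 and 601 CPM and *Krt20* at 1128 and 2309 CPM. *Nlrp6* and *Reg3g*, reported as high toward the villus bottom, were at 117 and 55981 CPM in cluster 3 and at 26.9 and 44200 CPM in cluster 7. *Fabp6*, the ileal bile acid binding protein gene, was at 35011 CPM in cluster 3 and at 22818 CPM in cluster 7. In both libraries the 4 apolipoproteins and *Fabp2* were thus highest where the upper villus gene *Ada* was. The villus position genes were not left out of the clustering as a list, so part of their separation may come from how the clusters were made.

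Over whole libraries the median log2 ratio of *Tipe0*-/- over WT was -0.13 for the 9 genes with at least 50 UMIs and 0.15 for all 11665 genes that passed the same filter, so ratios are read relative to 0.15. *Fabp2* was the only gene at least 1.5-fold higher in the *Tipe0*-/- library, a direction in which 8.62% of all genes passed. *Apoa4* and *Fabp1* were at least 1.5-fold lower, as were 5.06% of all genes. If the median ratio of all genes was set to 1 instead, these shares were 4.23% higher and 6.90% lower, no member was at least 1.5-fold higher, and 3 were at least 1.5-fold lower, since *Mttp* came to a log2 ratio of -0.60. *Fabp2* was at 705 CPM in WT and 1102 CPM in *Tipe0*-/-, a log2 ratio of 0.64 (0.62 to 0.67). *Fabp1* was at 33.2 and 4.60 CPM, a log2 ratio of -2.84 (-3.15 to -2.57), and *Apoa4* at 23.8 and 14.8 CPM, a log2 ratio of -0.68 (-0.86 to -0.50). *Apoa1* was nearly level in CPM, at 868 and 885, but its log2 ratio of 0.027 (0.0017 to 0.052) lay below the 0.15 of all genes.

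**Figure D2:**
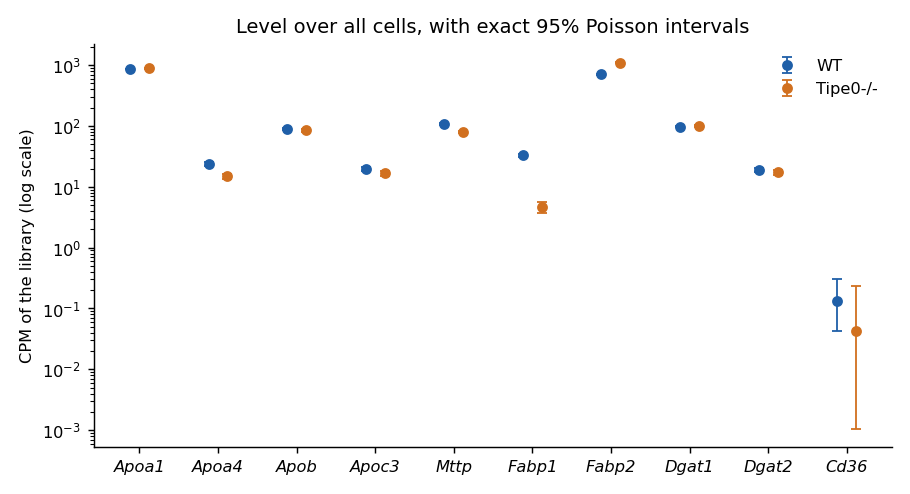
Level of each gene over all cells of the WT and *Tipe0*-/- libraries in CPM on a log scale, with exact 95% Poisson intervals. *Fabp1* shows the widest gap among genes with at least 50 UMIs, at 33.2 and 4.60 CPM, and *Cd36* lies at 0.13 and 0.042 CPM.

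The remaining genes stayed within 1.5-fold over whole libraries when scaled by total UMIs. *Mttp* was at 109 CPM in WT and 80.1 CPM in *Tipe0*-/- (log2 ratio -0.44, -0.52 to -0.36), *Apoc3* at 19.7 and 16.7 CPM, and *Apob* at 90.6 and 84.7 CPM. *Dgat1* was at 97.7 and 99.1 CPM and *Dgat2* at 18.8 and 17.2 CPM. Their intervals of the log2 ratio, -0.054 to 0.095 and -0.31 to 0.046, included 0 but lay below the median of 0.15 over all genes. Whole libraries mix cell classes whose shares differ, so the genes were next compared within clusters.

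In all enterocyte-like cells together, *Fabp2* was the only gene at least 1.5-fold higher in *Tipe0*-/- (13.8% of all genes) and *Fabp1* the only gene at least 1.5-fold lower (4.28% of all genes), and the median log2 ratio was 0.21 against 0.15 over all 7077 genes tested. These pooled values mix the 2 clusters in unequal parts: cluster 7, where most of the genes are highest, held 173 of 601 WT and 168 of 296 *Tipe0*-/- cells. *Apoa1* shows this. Its pooled level was 5867 CPM in WT and 8234 CPM in *Tipe0*-/- (log2 ratio 0.49, 0.46 to 0.52), yet it was not higher in either cluster. *Fabp2*, at 3945 CPM in WT and 8142 CPM in *Tipe0*-/-, had a pooled log2 ratio of 1.05 (1.02 to 1.07). When both libraries were weighted to the same makeup of clusters 3 and 7, the log2 ratio of *Apoa1* was -0.18, that of *Fabp2* 0.26, and the median of the 9 genes was -0.18. The members are therefore described within each cluster.

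**Figure D3:**
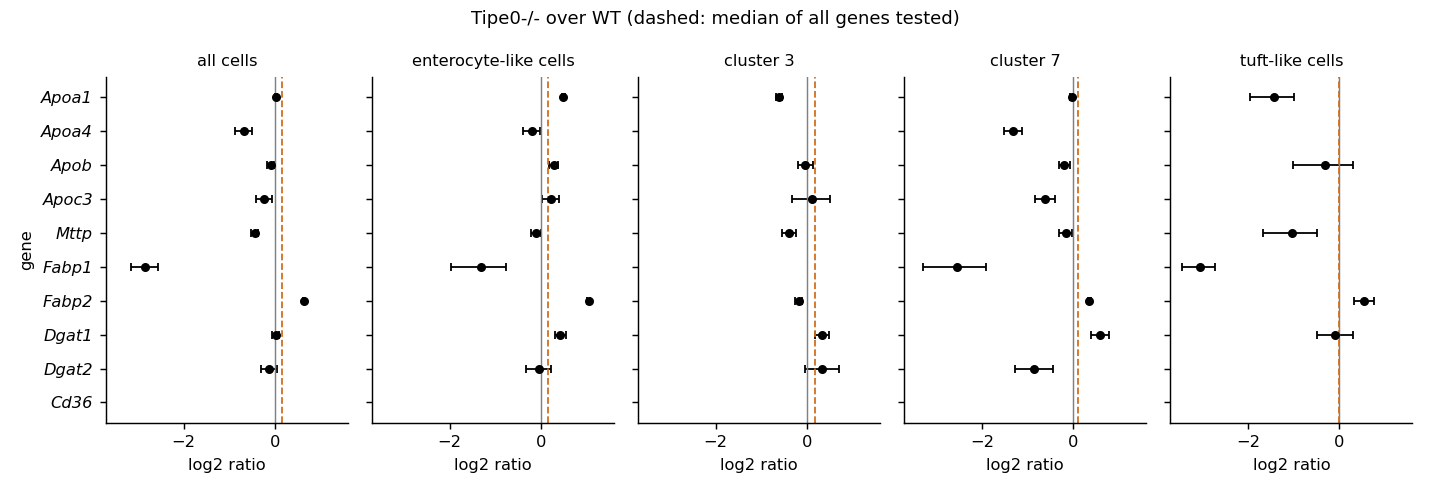
Log2 ratio of *Tipe0*-/- over WT for each gene with at least 50 UMIs in all cells, in enterocyte-like cells, in enterocyte-like clusters 3 and 7 and in tuft-like cells, with 95% binomial intervals; grey lines mark 0 and dashed lines the median of all genes tested. *Fabp1* lies at -2.84 in all cells and at -3.05 in tuft-like cells, and *Apoa4* at -1.31 in cluster 7.

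In cluster 3, none of the 7 genes with enough UMIs was at least 1.5-fold higher in *Tipe0*-/- (16.4% of all genes) and 1 was at least 1.5-fold lower (5.12% of all genes). The gene that was lower was *Apoa1*, at 2913 CPM (2860 to 2967) in WT and 1897 CPM (1821 to 1976) in *Tipe0*-/-. In cluster 7, none of 9 genes was at least 1.5-fold higher (15% of all genes) and 4 were at least 1.5-fold lower (7.91% of all genes): *Apoa4*, *Apoc3*, *Fabp1* and *Dgat2*. Of these, *Fabp1* rests on few cells, with 105 of its 141 WT UMIs in 1 cell, and no direction is read for it there. The median log2 ratio of the genes was -0.039 in cluster 3 and -0.20 in cluster 7, against 0.17 and 0.094 over all genes there.

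Among the apolipoproteins, *Apob*, the structural protein that each chylomicron carries, differed little. It was at 324 and 315 CPM in WT and *Tipe0*-/- cells of cluster 3 and at 1041 and 906 CPM in cluster 7 (log2 ratio -0.20, -0.32 to -0.08). *Apoa1*, which is made by enterocytes and also forms high-density lipoprotein, was at 15590 and 15235 CPM in cluster 7, a log2 ratio of -0.033. Every cell of cluster 7 held *Apoa1* in both libraries, with medians of 99 UMIs per WT cell and 91.5 per *Tipe0*-/- cell, so its level there did not come from a few cells. *Apoc3*, an inhibitor of lipoprotein lipase, was at 49.8 and 53.3 CPM in cluster 3 and at 393 (358 to 430) and 257 (228 to 289) CPM in cluster 7, a log2 ratio of -0.61 (-0.83 to -0.40).

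*Apoa4*, a chylomicron protein induced by dietary fat, was at 700 CPM (653 to 749) in WT and 281 CPM (251 to 315) in *Tipe0*-/- cells of cluster 7, a log2 ratio of -1.31 (-1.51 to -1.12). It was seen in 60 of 173 WT and 24 of 168 *Tipe0*-/- cells there, and 22 and 9 cells held 10 or more of its UMIs. The level rested on few cells: the 10 richest cells held 59.6% of the *Apoa4* UMIs of the WT cells and 93.2% of those of the *Tipe0*-/- cells, and a single *Tipe0*-/- cell held 155 of 311 UMIs. Without the 10 richest cells of each library, the log2 ratio of *Apoa4* over whole libraries moved from -0.68 to -2.41, but these cells held 54.7% of its WT and 86.2% of its *Tipe0*-/- UMIs, so this value says nothing about the direction. In cluster 3 the order was the other way round, at 14 UMIs in WT and 25 in *Tipe0*-/-, of which 23 lay in 1 cell.

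Cells of cluster 7 with an *Apoa4* UMI differed from those without in the same library. In WT, the 54 cells that still held *Apoa4* after thinning held *Apoc3* at 1016 CPM, *Apob* at 2019 CPM, *Dgat2* at 219 CPM and *Ada* at 1412 CPM. The other 119 WT cells held these at 193, 728, 94.3 and 79.9 CPM. In *Tipe0*-/- the 20 cells with *Apoa4* held *Apoc3* at 681 CPM, *Apob* at 1988 CPM, *Dgat2* at 92.0 CPM and *Ada* at 2807 CPM, and the other 148 cells held 211, 788, 66.2 and 114 CPM. The bile acid gene *Fabp6* went the other way, at 17315 and 24580 CPM in WT cells with and without *Apoa4* and at 13059 and 38492 CPM in *Tipe0*-/- cells. *Apoc3*, *Apob* and *Ada* were thus higher, and *Fabp6* lower, in *Apoa4*-positive cells of both libraries. Across the cells of the enterocyte-like clusters, *Apoa4* and *Ada* correlated with r = 0.81 over 601 WT cells and 0.69 over 296 *Tipe0*-/- cells, and *Apoa1* and *Fabp2* with r = 0.75 and 0.85. These are descriptions of cells that share a library and a scaling by depth.

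*Mttp* encodes the large subunit of the transfer protein that loads lipid onto apolipoprotein B. It was lower in *Tipe0*-/- in both enterocyte-like clusters, at 492 (471 to 515) and 373 (339 to 409) CPM in cluster 3 and at 742 (694 to 793) and 663 (615 to 712) CPM in cluster 7. Outside them it was highest in unnamed cluster 5 and in cluster 11, at 154 and 174 CPM in WT and 141 and 168 CPM in *Tipe0*-/-. Of 10 clusters with enough UMIs of *Mttp*, the interval lay below 0 in 3 and above 0 in none.

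*Dgat1* and *Dgat2* encode unrelated enzymes for the last step of triglyceride synthesis, and their ratios differed within cluster 7. *Dgat1* was at 304 CPM (274 to 337) in WT and 455 CPM (416 to 497) in *Tipe0*-/-, a log2 ratio of 0.58 (0.38 to 0.78). *Dgat2* was at 124 CPM (105 to 146) and 68.8 CPM (54.2 to 86.1), a log2 ratio of -0.85 (-1.27 to -0.45). After thinning, *Dgat1* was seen in 60.1% of WT and 72.0% of *Tipe0*-/- cells of cluster 7, and *Dgat2* in 31.8% and 19.6%. In cluster 3 *Dgat1* had a log2 ratio of 0.32 (0.16 to 0.47) and *Dgat2* one of 0.33 with an interval that included 0, so that only *Dgat1* was above 0 beyond counting error in both clusters. Over 11 clusters with enough UMIs, *Dgat1* was above 0 in 9, and its interval lay above the cluster's median of all genes in 1, cluster 7.

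*Fabp2*, the intestinal fatty acid binding protein gene, was higher in the *Tipe0*-/- library in 12 of the 13 clusters with enough UMIs, and in each of those 12 its interval lay above the cluster's median of all genes. The exception was cluster 3, at 1392 CPM (1355 to 1429) in WT and 1225 CPM (1164 to 1289) in *Tipe0*-/-. The log2 ratio was 0.35 in cluster 7 and was highest in unnamed cluster 5 (interval 0.98 to 1.42), where *Fabp2* was at 112 and 257 CPM. In cycling-like cells *Fabp2* was at 160 and 280 CPM, in stem-like cells at 74.0 and 142 CPM, in goblet-like cells at 430 and 612 CPM, in tuft-like cells at 193 and 283 CPM and in Paneth-like cells at 36.3 and 68.5 CPM. In Paneth-like cells the median of all genes was itself 0.48. Outside the enterocyte-like cells together, the log2 ratio was 0.74 (0.70 to 0.79).

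**Figure D4:**
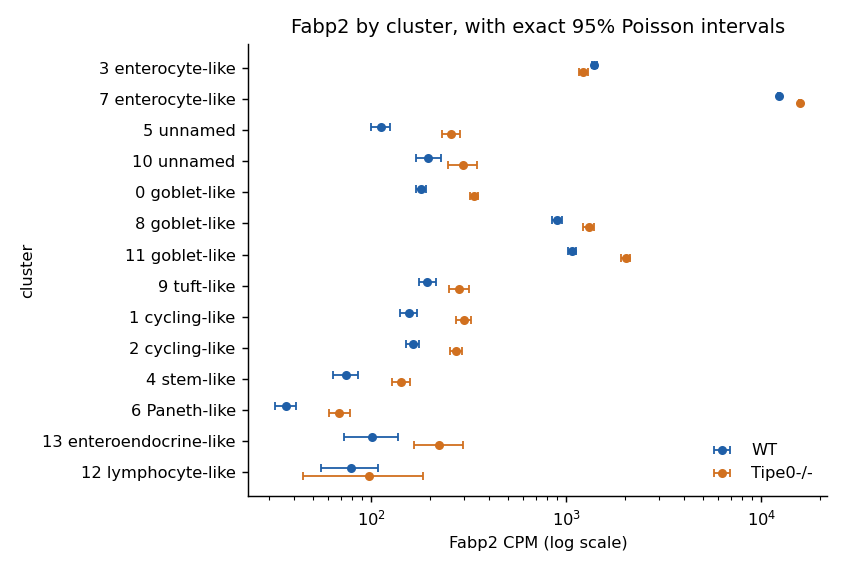
*Fabp2* level in each cluster of the WT and *Tipe0*-/- libraries in CPM on a log scale, with exact 95% Poisson intervals. The *Tipe0*-/- level is the higher in 13 of 14 clusters; in lymphocyte-like cluster 12 the intervals overlap, and in cluster 3 the WT level is the higher, at 1392 against 1225 CPM.

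Low *Fabp2* counts outside the villus classes were set against the lymphocyte-like cells. After thinning, *Fabp2* was seen in 14.4% (7.92 to 23.4%) of WT and 23.5% (6.81 to 49.9%) of *Tipe0*-/- lymphocyte-like cells. The latter share rests on 4 of 17 cells. Goblet-like cells were above these intervals, at 55.7% and 73.1%, as were cycling-like cells, at 36.9% and 54.3%. Paneth-like cells, at 9.54% and 17.3%, and stem-like cells, at 19.4% and 33.2%, lay inside them. Thinning keeps a smaller part of the UMIs of deeper cells, and Paneth-like cells had medians of 20967 and 26111 UMIs. Before thinning, the shares were 50.9% and 71.9% in Paneth-like, 38.8% and 58.9% in stem-like and 21.1% and 41.2% in lymphocyte-like cells. Whether Paneth- and stem-like cells held *Fabp2* of their own is therefore not decided, and no difference is read for them. For every 100 *Apoa1* UMIs, enterocyte-like cells held 67.3 (WT) and 98.9 (*Tipe0*-/-) *Fabp2* UMIs, Paneth-like cells 104 and 382, and stem-like cells 190 and 556. WT lymphocyte-like cells held 137, and in *Tipe0*-/- lymphocyte-like cells *Apoa1* gave too few UMIs for a ratio. The part of free RNA in the difference between the libraries was not tested.

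*Fabp1*, the liver type fatty acid binding protein gene, was the gene with the largest whole-library ratio, and its UMIs lay mainly outside the enterocyte-like cells. Tuft cells are rare chemosensory cells of the epithelium. Tuft-like cluster 9 held 1086 of 1266 *Fabp1* UMIs in WT (85.8%) and 68 of 110 in *Tipe0*-/- (61.8%). The cluster counted 154 WT and 51 *Tipe0*-/- cells, 4.53% and 2.54% of the libraries. Its *Fabp1* level was 534 CPM (503 to 567) in WT and 63.9 CPM (49.6 to 81.0) in *Tipe0*-/-, and the log2 ratio was -3.05 (-3.44 to -2.71). In all cells other than enterocyte- and tuft-like cells, it was at 0.77 CPM (0.50 to 1.15) and 0.68 CPM (0.37 to 1.15), which do not differ beyond counting error. No lymphocyte-like cell held a *Fabp1* UMI in either library.

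*Fabp1* was uneven among tuft-like cells. It was seen in 75 of 154 WT cells (48.7%) and 13 of 51 *Tipe0*-/- cells (25.5%), and after thinning in 35.7% (28.2 to 43.8%) and 9.80% (3.26 to 21.4%). In WT, 21 cells held 10 or more UMIs and the richest held 184. In *Tipe0*-/-, 2 cells held 10 or more, with 31 and 18 UMIs, although the median depth of the cells was 12008 UMIs in WT and 17650 in *Tipe0*-/-. The 10 richest cells carried 68.1% of the WT and 95.6% of the *Tipe0*-/- UMIs. Because these 10 cells were most of the 13 *Tipe0*-/- cells with *Fabp1* and few of the 75 WT cells, leaving them out says nothing about the direction.

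**Figure D5:**
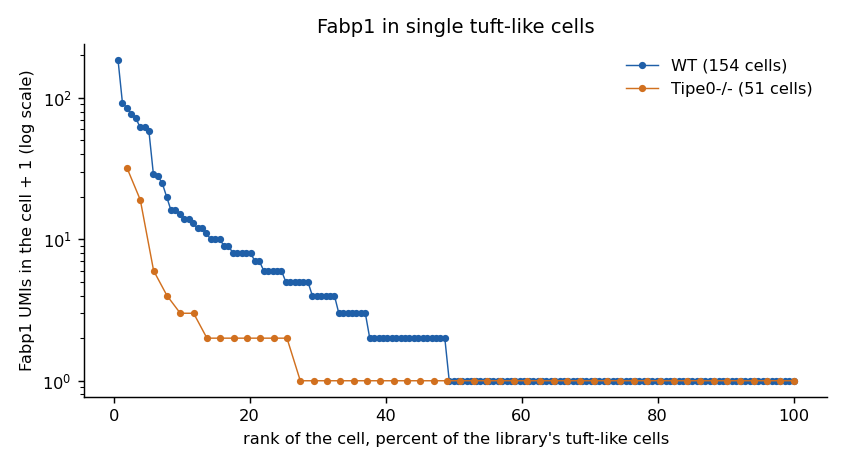
*Fabp1* UMIs in each tuft-like cell, with 1 added, on a log scale against the rank of the cell as a percent of the tuft-like cells of its library, for 154 WT and 51 *Tipe0*-/- cells. The WT curve lies above the *Tipe0*-/- curve until it reaches cells with no *Fabp1* UMI, from 184 UMIs in the richest WT cell against 31 in the richest *Tipe0*-/- cell.

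Other genes moved with *Fabp1* in the tuft-like cells. All 14 tuft markers had log2 ratios below 0 in the tuft-like cells, with a median of -0.67 against 0.0032 over all genes tested. The marker median includes *Gfi1b* (10 WT and 0 *Tipe0*-/- UMIs) and *Il25* (6 and 2 UMIs). These had too few UMIs to pass the filter used for all genes, so the medians rest on unlike sets. The intervals of *Il25* (-3.99 to 1.83) and *Pou2f3* (-0.76 to 0.27) included 0. Shares of tuft-like cells with a marker, before thinning, went both ways. They were 93.5% in WT and 100% in *Tipe0*-/- for *Dclk1* and 83.1% and 90.2% for *Trpm5*. For *Ltc4s* they were 74.7% and 56.9%, and for *Matk* 60.4% and 47.1%. The *Tipe0*-/- cells were the deeper, with medians of 12008 UMIs in WT and 17650 in *Tipe0*-/-, and the part of depth in the marker ratios was not tested. The defining *Dclk1* and *Trpm5* were at 637 and 443 CPM and at 188 and 113 CPM in WT and *Tipe0*-/-. Enterocyte genes were lower as well: *Sis* was at 57.5 and 16.9 CPM, *Krt20* at 142 and 45.1 CPM and *Fabp6* at 4499 and 1573 CPM. *Apoa1*, whose thinned share of cells there lay inside the intervals of lymphocyte-like cells, was at 113 and 41.3 CPM. *Mttp* was at 62.5 and 30.1 CPM (log2 ratio -1.04, -1.66 to -0.49), whereas *Fabp2* was the higher in *Tipe0*-/-, at 193 and 283 CPM. WT tuft-like cells with *Fabp1* held *Dclk1* at 867 CPM and *Trpm5* at 259 CPM, and those without it 460 and 133 CPM. In both libraries the cells with *Fabp1* thus had more of these tuft markers, since *Tipe0*-/- cells held *Dclk1* at 572 and 408 CPM and *Trpm5* at 211 and 86.0 CPM. The cells with *Fabp1* also held more of the enterocyte genes *Fabp6*, *Sis* and *Apoa1*. In WT these were at 6080, 73.3 and 237 CPM with *Fabp1* and at 3277, 45.4 and 17.4 CPM without it. In *Tipe0*-/- they were at 4155, 44.0 and 61.6 CPM with *Fabp1* and at 872, 9.55 and 35.8 CPM without it. Of tuft-like cells, 14.6% were among the 5% with the highest doublet scores, and without these cells *Fabp1* was at 512 and 88.4 CPM. The part of these differences in the *Fabp1* ratio was not tested.

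In enterocyte-like cells *Fabp1* rested on few cells. Of its 156 UMIs in WT, 105 lay in 1 cell of cluster 7, and the 28 *Tipe0*-/- UMIs were spread over 11 cells, of which 1 held 15. It was seen in 15 of 601 WT cells and 11 of 296 *Tipe0*-/- cells (2.50% and 3.72%, or 1.16% and 2.36% after thinning). The pooled log2 ratio of -1.32 (-1.98 to -0.76) turned to 0.44 when the cells with the highest doublet scores were left out, and no direction is read for *Fabp1* in enterocyte-like cells.

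*Cd36*, a fatty acid receptor and translocase, gave 5 UMIs in 5 WT cells and 1 UMI in 1 *Tipe0*-/- cell, or 0.13 (0.043 to 0.31) and 0.042 (0.0011 to 0.23) CPM. No cell held more than 1 UMI, and the *Tipe0*-/- UMI lay in a lymphocyte-like cell. Of the enterocyte-like cells, 1 WT cell and no *Tipe0*-/- cell held *Cd36*, and the 0 UMIs in the latter have an exact Poisson upper limit of 1.59 CPM, so no difference was detectable at this depth.

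The other genes of fat absorption were taken from 6 lists with 81 genes in the tables, of which 76 had at least 50 UMIs. Of these, 3 were at least 1.5-fold higher in the whole *Tipe0*-/- library (among them *Slc27a2* and *Scd1*) and none was at least 1.5-fold lower. Of all genes, 8.62% and 5.06% passed in these directions, so the counts are no higher than those of genes at large. The median log2 ratio of the 76 genes was -0.0017 against 0.15 over all genes. In the 14 tested genes of other lipoprotein proteins and chylomicron assembly and transport, the median was -0.19 and none passed in either direction. In the 13 genes of fatty acid oxidation and ketogenesis it was 0.27. In the 18 genes of triglyceride synthesis and lipid droplets it was -0.045, in the 9 genes of fatty acid uptake and binding -0.089, in the 9 genes of cholesterol absorption 0.039 and in the 13 transcription factors 0.054.

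Within enterocyte-like cells, 8 of 66 tested genes were at least 1.5-fold higher in *Tipe0*-/- and 1 was lower, against 13.8% and 4.28% of all genes, so these counts are no higher than those of genes at large. The higher genes included *Acsl3*, *Agpat3*, *Scd1*, *Scd2*, *Fasn*, *Acaa2* and *Srebf1*, of which *Scd1*, *Scd2* and *Fasn* make fatty acids or desaturate them and *Srebf1* encodes a factor that drives such genes. *Scd2* was at 192 CPM (180 to 204) in WT and 289 CPM (268 to 312) in *Tipe0*-/-, a log2 ratio of 0.59 (0.45 to 0.74). The log2 ratio of *Scd2* was 0.96 (0.80 to 1.12) in cluster 3, and in cluster 7 it was 0.31 with an interval that included 0. The lower gene was *Slc25a20*, the carrier that brings acylcarnitine into mitochondria, at 97.0 CPM (88.6 to 106) and 57.2 CPM (47.9 to 67.8). The log2 ratio of *Slc25a20* was -0.59 (-0.95 to -0.26) in cluster 3, and in cluster 7 it was -0.53 with an interval that included 0. In cluster 7, 5 of 52 genes were at least 1.5-fold higher (15% of all genes), *Fabp6*, Cpt2, Ehhadh and the nuclear receptor genes *Hnf4g* and *Nr1h4*, and 2 were lower (7.91% of all genes), Lpin2 and *Creb3l3*, which encodes an activator of apolipoprotein genes. In cluster 3, 6 of 63 genes were higher (among them *Agpat3*, *Scd2*, *Fasn*, Acadm and *Acaa2*) and 3 lower (Agpat1, *Slc25a20* and *Tm6sf2*, the last with a part in lipoprotein lipidation), against 16.4% and 5.12% of all genes.

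Genes known for villus position and bile acid handling also differed between the libraries within cluster 7. *Slc28a2* was at 124 and 84.2 CPM in WT and *Tipe0*-/-, *Krt20* at 2309 and 1709 CPM and *Klf4* at 601 and 481 CPM, while *Ada* was at 403 and 379 CPM with an interval of the ratio that included 0. *Nlrp6* was at 26.9 and 66.1 CPM and *Il18* at 24.4 and 59.7 CPM, but *Reg3g*, listed with them as high toward the villus bottom, was at 44200 and 25844 CPM. Other genes listed as high toward the bottom are not given here, so no direction is read for them as a set. *Slc10a2*, the bile acid transporter of the apical membrane, was at 1086 and 1623 CPM and *Slc51a* at 806 and 1222 CPM. *Fabp6* was higher in *Tipe0*-/- in both clusters, at 35011 and 50587 CPM in cluster 3 and at 22818 and 35991 CPM in cluster 7. Cluster 7 thus held more of *Fabp6*, *Slc10a2* and *Slc51a* and less of *Apoa4*, *Apoc3* and *Dgat2* in *Tipe0*-/-. Other genes of bile acid handling are not given for this cluster, so no direction is read for them as a set. Over whole libraries *Fabp6* was at 7277 CPM in WT and 7149 CPM in *Tipe0*-/-, *Slc10a2* at 121 and 123 CPM and *Slc51a* at 181 and 161 CPM. Their log2 ratios of -0.026, 0.026 and -0.17 lay below the 0.15 of all genes, so the higher levels of cluster 7 were not seen there. Whether the cells of cluster 7 sat at the same height of the villus in the 2 libraries was not tested.

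The genes whose pattern was most like that of each member were found over the 28 combinations of cluster and library, among 7951 genes, by Pearson's r of log2(CPM + 1). For *Apoa1* they were *Pmp22* (0.97), *Cubn* (0.97) and *2010106E10Rik* (0.97), for *Apoa4* *Clca4a* (0.89), *Pdzk1* (0.88) and *Ezr* (0.88), and for *Apoc3* they included *Pdzk1* (0.95) and *Slc25a48* (0.93). *Apob* was most like *Clca4b* (0.97), *Pla2g12b* (0.96) and *Slc52a2* (0.96), and *Mttp* like *Srxn1* (0.98), *Cyp4f14* (0.98) and *Muc3* (0.98). For *Fabp2* they were *Tbx3* (0.93), *Dfna5* (0.93) and *Crip1* (0.92), for *Dgat1* *Rnf152* (0.96), *Fahd1* (0.95) and *Ap2a2* (0.95), and for *Dgat2* *Slc7a9* (0.95), *Nostrin* (0.95) and *Prap1* (0.94). *Fabp1* stood apart, with the tuft genes *Trpm5* (0.82), *Dclk1* (0.82) and *Avil* (0.82) nearest. Among the members, *Apoa1* and *Apoc3* had r = 0.95, *Mttp* and *Dgat1* 0.94 and *Apob* and *Dgat2* 0.94, and no member exceeded 0.58 with *Fabp1*. The points share libraries and clusters, so these values are descriptions.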

How the data were processed

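The authors prepared the libraries with Chromium 3′ v2 chemistry, used Cell Ranger 2.1.0 with the mm10 build and deposited raw UMI counts per gene and cell, 1 table per library. The depth equalization by Cell Ranger aggr in their methods is not in the deposited counts. The methods name DNase I and Dispase for digestion, whereas the labels name collagenase and dispase.

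The members and gene lists were chosen with earlier results of these data known. Clusters were made in R 4.3.3 by Seurat 5.3.0 at a resolution of 0.8, from log-normalized counts of genes with high dispersion and 14 principal components. Left out of the 582 variable genes were the members, the other fat absorption genes and the genes of the study's genotype comparison, which left 510. A cluster was given the class whose markers had the highest mean z-score, provided that at least 3 markers were found in at least 10% of its cells and in 1.5 times the share of other cells. UMIs were summed per group of cells and given as CPM with exact Poisson intervals. Log2 ratios, with 0.5 added to each sum, have exact binomial intervals, and shares of cells have Clopper-Pearson intervals. A gene was compared where the libraries together gave 50 or more of its UMIs, and a gene was counted as higher or lower from 1.5-fold on. Counts come from 3′ ends, and capture differs between genes, so levels were not compared between genes. Cells were thinned to 3000 UMIs for shares, and no cell was shallower. Scrublet in Scanpy 1.11.5 called 15 WT and 3 *Tipe0*-/- doublets, too few to have worked, so no cell was removed and the 5% with the highest scores were left out as an alternative. Other fat absorption genes are named when past 1.5-fold, with values only at 50 CPM or more in the higher library. A few genes that these rules name are not reported here. The ratios and intervals were tested on sums simulated with counting error only, which is what the intervals assume. This says nothing about genes whose UMIs lie in few cells. Other alternatives were the scaling, the added count, weighting by cells, makeup of classes or clusters, the richest cells, the clustering and the naming of cells.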

Additional observations from a re-analysis of the deposited data

Results flagged for a closer look

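For 2 genes the counting interval of the *Tipe0*-/- over WT ratio lay above 0 in 1 cell class and below 0 in another. With 1 library per genotype, these differences between classes were not tested. *Apoa1* had a log2 ratio of 0.49 in enterocyte-like cells and -1.44 in tuft-like cells. The tuft-like value rests on 230 WT and 44 *Tipe0*-/- UMIs, of which 90.4% and 95.5% lay in 10 cells. The thinned share of tuft-like cells with *Apoa1* lay inside the intervals of lymphocyte-like cells. The enterocyte-like value is -0.18 when both libraries are weighted to the same makeup of the 2 enterocyte-like clusters. *Dgat1* had a log2 ratio of 0.42 in enterocyte-like cells and -0.19 in goblet-like cells. Within goblet-like clusters the *Dgat1* ratio was 0.23 in cluster 0 and -0.23 in cluster 11, each with an interval that included 0. Cluster 11, in which 15 enterocyte markers were raised and *Dgat1* was at 205 and 174 CPM, held 129 of 747 WT and 59 of 510 *Tipe0*-/- goblet-like cells, so the pooled value mixes these clusters in unequal parts.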

How the results depend on the processing

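Of 73 recomputed medians and counts, 57 kept their direction and size, 12 moved and 4 reversed, and of 151 recomputed ratios of named genes 91 kept both, 43 moved and 17 reversed. For the other values the cause was not tested. Reversals were counted against 0. With the median ratio of all genes set to 1, the other fat absorption genes had a median of -0.16 and 0 members were higher (4.23% of all genes), *Apoa1* became -0.13 and *Dgat1* -0.13. This setting takes the same 0.15 from every log2 ratio. *Apoa1* and *Dgat1* were already below the median of all genes, and only their side of 0 changed. With totals without mitochondrial and the 20 most abundant genes, *Apoa1* became -0.031 and *Dgat1* -0.037. Without the 10 richest cells of each gene, *Apoa1* became -0.025 and *Dgat1* -0.00049. When cell classes had equal shares in both libraries, the members had a median of 0.15 and the other genes one of 0.040, against 0.14 over all genes. There 1 member was lower (3.17% of all genes), and *Apob* became 0.22, *Apoc3* 0.15 and *Dgat2* 0.062. When the libraries were weighted to the same makeup of clusters, an alternative chosen after seeing the data, the other genes had a median of 0.030, against 0.13 over all genes. There 0 members were higher (6.83% of all genes), and *Apoa1* became -0.14 and *Dgat2* 0.061.

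In enterocyte-like cells, weighting to the same makeup of the 2 clusters, also chosen after seeing the data, made the median of the members -0.18, against 0.18 over all genes. With it 0 members were higher and 2 lower, and *Apoa1* became -0.18, *Apob* -0.13 and *Apoc3* -0.42. For the alternatives in enterocyte-like cells, the share of all genes past 1.5-fold was not computed, so these counts have no background. With 2000 variable genes by vst, with cells named by their own marker scores and without the highest doublet scores, 0 members were lower, since *Fabp1* became 0.46, 1.17 and 0.44, and the median level over other cells in WT became 3.99, 3.90 and 4.28. *Fabp1* in tuft-like cells stayed between -3.04 and -2.52 under 6 alternatives, chosen after seeing the data; it was -5.70 without the 10 richest cells, which removes unequal shares of its UMIs. Leaving out a library was not possible with 1 per genotype. No paired analysis was possible because each genotype has 1 library. Precision is limited by counts for *Fabp1* in enterocyte-like cells, *Apoa4* outside cluster 7 and *Cd36*.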
